A study of Mus musculus with 32 samples.

Results

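The genes described here code for the proteins of the small subunit of the cytosolic ribosome. They were chosen by symbol from the table of reads on 3′UTRs, as Rpsa or Rps followed by a number, with the letters a, l or x allowed, and 32 of the 44081 genes in that table met the rule. Primary hippocampal neurons of C57BL/6 mice, taken at embryonic day 18, were kept in culture for 15 days. In each of 16 neurons the dendrites were cut away and aspirated into 1 tube and the cell body into another, which gave 16 dendrite and 16 soma libraries paired by neuron. No group carried a mutation or a drug, so the comparison was between the compartments of resting neurons. Their polyA RNA was amplified by linear in vitro transcription (aRNA), in 3 rounds for neurons 1 to 4 and in 2 rounds for the other 12. The question was which of these mRNAs made up a larger part of the dendritic than of the somatic RNA.

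The small subunit decodes the mRNA and is built in the nucleolus from one ribosomal RNA and a set of proteins, most of which are coded by a single gene each. Its head and its body with the platform clasp the mRNA between them. mRNAs of ribosomal proteins usually begin with a C and a short run of pyrimidines, the terminal oligopyrimidine (TOP) tract, through which mTOR signalling and the protein Larp1 control their translation together. Ribosomal protein mRNAs are known to be present in neuronal processes, far from the nucleolus where subunits are assembled.

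Sequences at the transcription start were examined because the members are known for this shared tract. RefSeq starts on GRCm38.p6 were at hand for 23 of the 32 members. A run of a C followed by at least 5 bases that were each C or T was searched on the transcribed strand only, with at least 6 of its bases between 20 bases before and 40 bases after the start. Such a run was found in 18 of the 23 members (78.3%) and in 39.8% of the 32851 promoters of the same length. The run recorded for a member began between -22 bases (Rps25 and Rps27l) and 28 bases (Rps3a1) from the RefSeq start. Not every run thus lay at the start itself. The following windows of 30 bases show the members with the highest and the lowest fold changes that had an entry, with every such run in capitals.
Rps28: ctgggtaccgcgtgcggtctcgcgagagcg
Rps21: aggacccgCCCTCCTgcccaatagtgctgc
Rps24: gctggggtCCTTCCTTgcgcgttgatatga
Rps12: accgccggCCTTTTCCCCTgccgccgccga
Rps3: acacttgcaagggtcgccgcgctgcgcggc
Rps6: aagtcgggCCTCTTTTTCgtgacgCCTCCC
Rps27l: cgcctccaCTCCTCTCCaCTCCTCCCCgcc
On GRCm38.p6 these lie at chr17:33824551-33824580 on the minus strand for Rps28, chr2:180257369-180257398 on the plus strand for Rps21, chr14:24490668-24490697 on the plus strand for Rps24 and chr10:23787180-23787209 on the minus strand for Rps12. The windows of the other three are at chr7:99483698-99483727 (Rps3, minus strand), chr4:86857347-86857376 (Rps6, minus strand) and chr9:66946056-66946085 (Rps27l, plus strand). Runs were present and missing at both ends of the order of fold changes. Rps28 and Rps3 had none in the window searched, whereas the first runs of Rps6 and Rps27l had 10 and 9 bases. An annotated start can lie some bases from the one a cell uses, so a match or its lack describes the letters in this window alone.

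The libraries held 646521 to 6954420 reads on 3′UTRs in dendrites and 925525 to 21169974 in somas. The neuronal marker Map2 is one of the 5 pyramidal neuron markers summed below. It had reads in all 16 dendrite and all 16 soma libraries, and the interneuron markers Gad1 and Gad2 likewise. Of the other pyramidal markers, Grin1 had reads in 15 dendrite and 16 soma libraries and Camk2a in 13 and 14. Slc17a7 had reads in 13 and 13 and Neurod6 in 11 and 11. The 5 pyramidal neuron markers summed to between 395 and 6916 CPM (counts per scaled library size, in parts per 1e+06, TMM method) in dendrites and between 102 and 2423 CPM in somas, and the 3 interneuron markers to between 1737 and 11320 and between 1126 and 19880 CPM. The medians in dendrites and somas were 2494 and 521 CPM for the pyramidal list and 4033 and 9639 CPM for the interneuron list. Summed over its 5 genes, the astrocyte list ranged from 0 to 562 CPM in dendrites and from 0 to 133 CPM in somas, and the microglial list from 0 to 384 and from 0 to 7.90 CPM. The oligodendrocyte list ranged from 0 to 162 CPM in dendrites and from 0 to 134 CPM in somas, and the endothelial list from 0 to 43.7 and from 0 to 129 CPM. Gjb6 and Cldn5 were at 0 in every library, and the part of other cells in the results below was not tested. No pair of libraries within a compartment held identical counts.

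The small subunit mRNAs took a larger part of the dendritic than of the somatic RNA, and 31 of the 32 had a log2 fold change (dendrites over somas) above 0 at this scaling, whereas all 32 were below 0 when libraries were scaled to the ERCC spike-ins. All 32 had at least 1 read in at least 16 libraries and entered the fit (edgeR quasi-likelihood test, neuron as block, Benjamini-Hochberg adjustment over 10880 genes). The median log2 fold change of the members was 1.07, and that of all genes tested was -1.49, so that the members lay 2.56 above the median gene. The number of genes with at least 10 reads moved with this contrast. It ranged from 1570 to 9871 in dendrites and from 6041 to 12180 in somas, and was lower in the dendrites of 15 of the 16 neurons. The dendrites of neurons 15 and 16 had the fewest (1570 and 2485), and in these neurons the members lay furthest above all genes, by 4.51 and 5.24 (medians of log2 ratios). Without both, an alternative chosen after seeing the data, the members lay 2.09 above the median gene of -1.01 and the same 5 were called. The part of the number of genes in the difference was not otherwise tested. Of all genes tested 21.2% had a log2 fold change above 0. 5 members passed an adjusted p of 0.05 with higher levels in dendrites (Rps29, Rps28, Rps21, Rps24 and Rps12), and 0 with higher levels in somas. Among all genes 0.827% were called with higher dendrite levels and 5.71% with higher soma levels. Before adjustment 12 members had a p under 0.05, each of them with more in the dendrites. Of the 10880 genes tested, 386 had such a p with more in the dendrites and 2901 with more in the somas. The members also lay closer together than genes in general, with an SD of log2 fold changes of 0.67 over the members and of 1.99 over all genes. Genes were not matched for level here, and the part of level in this difference was not tested.

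**Figure D1:**
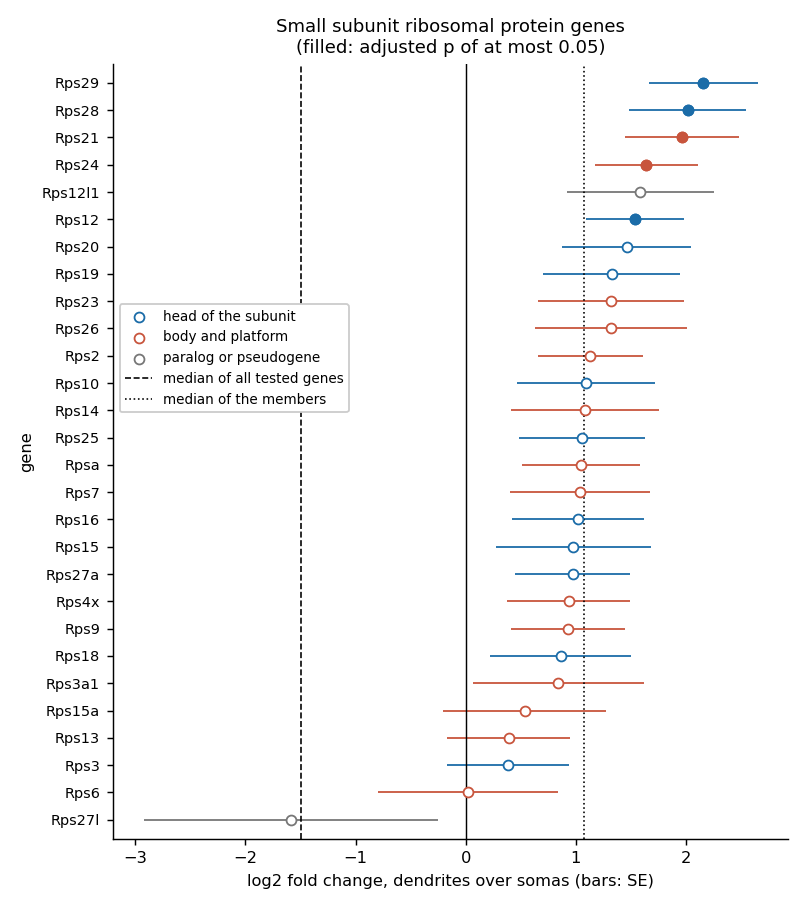
Log2 fold change of 28 of the 32 members between dendrites and somas of 16 neurons (points, with the SE as bars), coloured by place in the subunit and filled where the adjusted p was at most 0.05. The 5 filled genes are Rps29, Rps28, Rps21, Rps24 and Rps12, the median of all 32 members is 1.07, the median of all genes is -1.49, and every point moves below 0 with spike-in scaling.

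Rps29, a small zinc-binding protein of the head, had the largest fold change of the family. Its level ranged from 267 CPM through a median of 929 CPM to 2333 CPM in the dendrites. In the somas it ranged from 71.4 CPM through 197 CPM to 337 CPM. The dendrites were higher in all 16 neurons, and the lowest dendrite libraries overlapped the highest soma libraries only between 267 and 337 CPM. The log2 fold change was 2.16 (SE 0.49, adjusted p = 0.0124), a 4.46-fold difference. The genes described in full lie, by GENCODE vM21 on GRCm38, at chr12:69157722-69159186 (Rps29, minus strand), chr17:33819027-33824562 (Rps28, minus), chr2:180257377-180258445 (Rps21, plus), chr14:24487125-24496959 (Rps24, plus), chr10:23785183-23787275 (Rps12, minus), chr7:99477896-99483738 (Rps3, minus), chr4:86854660-86857412 (Rps6, minus) and chr9:66946086-66949516 (Rps27l, plus).

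Rps28, which sits in the head near the exit of the mRNA channel, had 204 CPM in the lowest, 558 CPM in the median and 1470 CPM in the highest dendrite library. The soma values were 83.0, 139 and 395 CPM. The dendrites were higher in 15 of the 16 neurons, and the exception was neuron 2, which had the highest soma and the lowest dendrite level of all. The log2 fold change was 2.01 (SE 0.53, adjusted p = 0.0206). Rps21, a short protein of the body, had 241, 604 and 1492 CPM in the lowest, median and highest dendrite library and 76.7, 159 and 278 CPM in the somas. Its dendrite level was higher in all 16 neurons, and the fitted log2 fold change was 1.97 (SE 0.52, adjusted p = 0.0206).

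Rps24, a protein of the body that is mutated in some patients with Diamond-Blackfan anaemia, ranged from 473 through 955 to 2775 CPM in dendrites. Its soma values ran from 131 through 304 to 2411 CPM. The value of 2411 CPM belonged to neuron 2, the only neuron with more Rps24 in its soma. Its log2 fold change was 1.64 (SE 0.47, adjusted p = 0.0305), and 1.80 without neuron 2. Rps12, in the beak of the head, had 372, 955 and 3116 CPM in the lowest, median and highest dendrite library and 176, 344 and 654 CPM in the somas. It was higher in the dendrites of all 16 neurons, and the fitted log2 fold change was 1.54 (SE 0.45, adjusted p = 0.0327). Rps29, Rps28 and Rps21 were called whichever neuron was left out, and Rps24 and Rps12 in 12 of the 16 such fits each. Both were lost without neuron 7, 8 or 9, which left 3 members called, Rps24 was lost without neuron 10 and Rps12 without neuron 11, and 9 members were called without neuron 15.

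**Figure D2:**
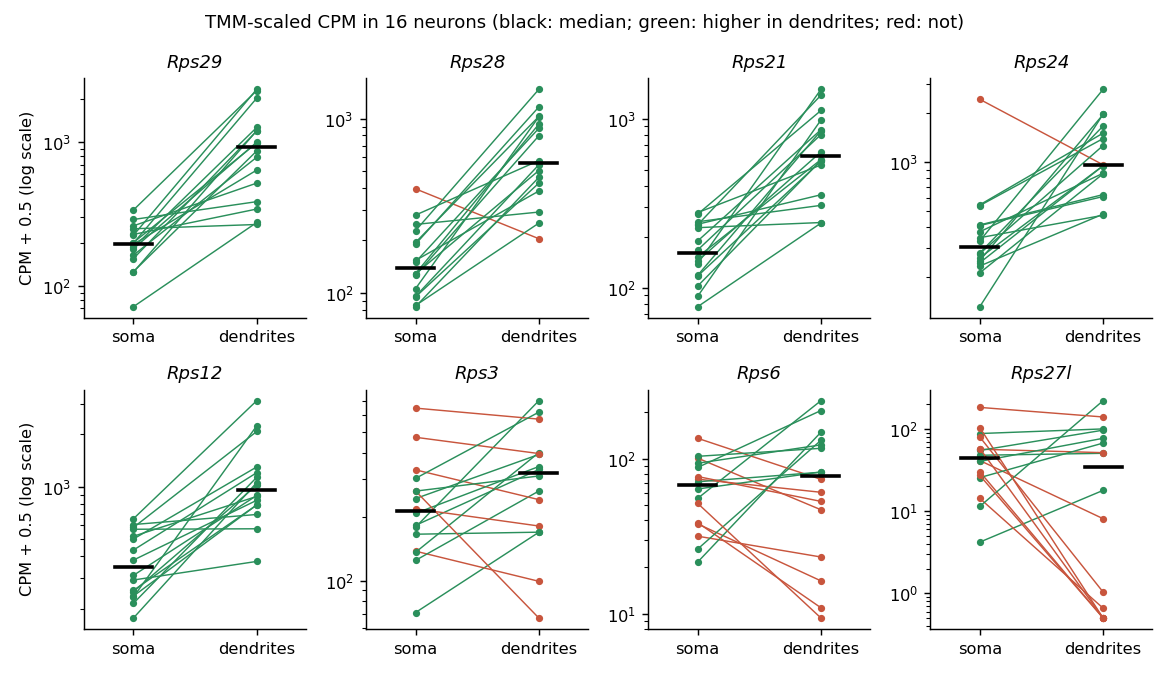
Level of 8 members in both compartments of 16 neurons, as CPM + 0.5 on a log axis, with a line per neuron, green where the dendrites were higher, and black bars at the medians. Rps29, Rps21 and Rps12 rise in all 16 neurons, Rps28 and Rps24 in all but neuron 2, and Rps6 in 8, at TMM scaling.

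The called genes were spread over the subunit. Of the 14 members of the head, 3 were called (Rps29, Rps28 and Rps12), all 14 had log2 fold changes above 0 at TMM scaling, and their median was 1.17. The other head proteins ran from Rps20 (1.46) and Rps19 (1.32), the gene most often mutated in Diamond-Blackfan anaemia, down to Rps3 (0.38), and none of these passed the test. Of the 16 members of the body and platform, 2 were called (Rps21 and Rps24) and the median was 1.04. Below them lay Rps23 (1.32), a protein of the decoding centre, and Rps26 (1.32), which lies at the exit of the mRNA channel. The lowest of the body were Rps15a (0.53), Rps13 (0.39) and Rps6 (0.02). Rpsa, also known as the laminin receptor, had 1.05 and Rps27a, which is made as a fusion with ubiquitin, 0.97, and neither passed. Of the 15 members with a counterpart in bacterial ribosomes 1 was called (Rps29) and the median was 1.05, and of the 15 without one 4 were called and the median was 1.09. The differences between these groups were not tested.

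At the lower end stood Rps3, Rps6 and Rps27l, none of which passed the edgeR test at TMM scaling. Rps6, the protein phosphorylated by the S6 kinases when mTOR is active, had 8.90, 77.2 and 236 CPM in the lowest, median and highest dendrite library. Its soma values were 21.1, 66.9 and 135 CPM. The dendrites were higher in 8 of the 16 neurons, and the log2 fold change was 0.02 (SE 0.82, adjusted p = 0.990). Rps3, which lines the entry of the mRNA channel and also acts in DNA repair, ranged from 66.2 through 322 to 704 CPM in dendrites and from 70.3 through 212 to 649 CPM in somas. It was higher in dendrites in 10 neurons, and the fitted log2 fold change was 0.38 (SE 0.56, adjusted p = 0.638).

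Rps27l is a paralog of Rps27 that is induced by p53. It was the only member with a log2 fold change below 0 (-1.59, SE 1.34, adjusted p = 0.402), close to the median of all genes. DESeq2 called it higher in somas (-1.77, adjusted p = 0.0452), as did edgeR with spike-in scaling (-4.66, adjusted p = 0.0237). Its dendrite levels ran from 0 through 33.7 to 221 CPM and its soma levels from 3.70 through 44.1 to 183 CPM. In 4 neurons the dendrites had no read of it and in 7 fewer than 10 reads, whereas 15 of the 16 somas had at least 10. In 7 neurons its dendrite level exceeded that of the soma, and the dendrites thus fell into libraries with levels like those of somas and libraries at or near 0. Rps27 itself, the canonical gene, had no row in the 3′UTR table, and on exons it had 80 reads in all, in 12 libraries and at most 40 in any one. Rps4l, the paralog of Rps4x, also had no row, while for Rps4x the log2 fold change came to 0.93 (SE 0.56, adjusted p = 0.238). Rps12l1 met the rule by its symbol but is annotated as a processed pseudogene (GENCODE vM21, GRCm38, chr7:56014016-56014414), with 60 reads over all libraries and at most 3.27 CPM in any of them.

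Summed over the 32 genes, the share of 3′UTR reads was 1.28% ± 0.404 in dendrites as against 0.594% ± 0.177 in somas (SD, n = 16 each). It ranged from 0.579% through 1.27% to 1.96% in dendrites and from 0.380% through 0.538% to 0.962% in somas. The paired difference was 0.686 ± 0.461 percentage points (SD, n = 16), and the share was higher in the dendrites of 15 neurons. Neuron 2 was the exception, with the lowest share among dendrites (0.579%) and the highest among somas (0.962%). Reads of mitochondrially encoded genes, which took 2.39% to 35.8% of the dendrite libraries and 0.277% to 8.13% of the soma libraries, moved with the compartment too. With them left out of the total, the shares were 1.57% ± 0.648 and 0.606% ± 0.177 (SD, n = 16 each). On exon reads they were 1.91% ± 0.759 for dendrite libraries as against 0.731% ± 0.243 for soma libraries (SD, n = 16 each). The order of the compartments held in the same 15 neurons in all of these counts.

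**Figure D3:**
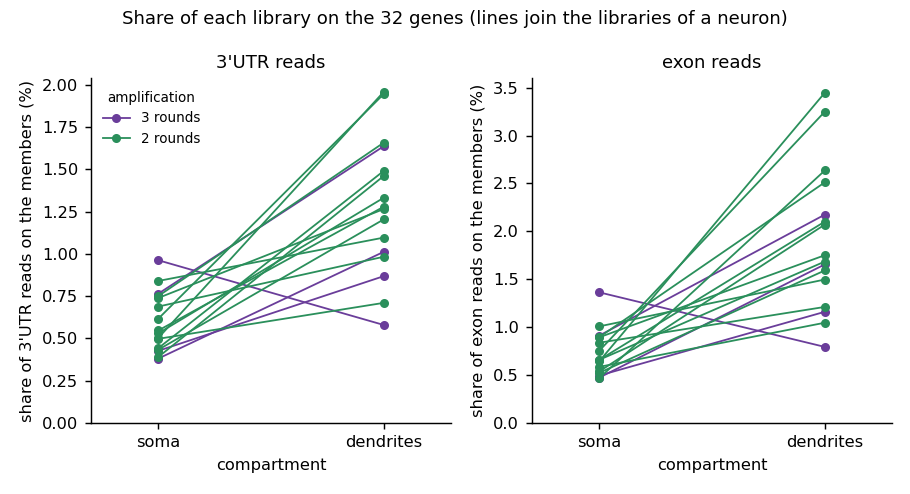
Share of each library's reads that fell on the 32 members (percent, axis from 0), for 3′UTR reads on the left and exon reads on the right, with a line joining the soma and the dendrites of a neuron and colours for the rounds of amplification. The share is higher in dendrites in 15 of 16 neurons, and the falling line is neuron 2, with 3 rounds.

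The members were found in nearly every dendrite. Of the 32, 29 had reads in all 32 libraries, as against 7.40% of the genes tested, and 28 had at least 10 reads in all 16 dendrite libraries, as against 3.48%. In single neurons, the median log2 ratio of the members (dendrites over soma, CPM + 0.5) was above 0 in 15 neurons and above the median of all genes in 15. Neuron 2 had a median of -0.48, with 8 of 32 members higher in its dendrites. The next lowest were neuron 14 (0.26), neuron 13 (0.26) and neuron 6 (0.27), and the highest was neuron 15 (2.25), in which the members also spread most, with an SD of 2.99. Over the family, 28 members were higher in the dendrites of at least 12 neurons, as against 4.26% of the genes tested.

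**Figure D4:**
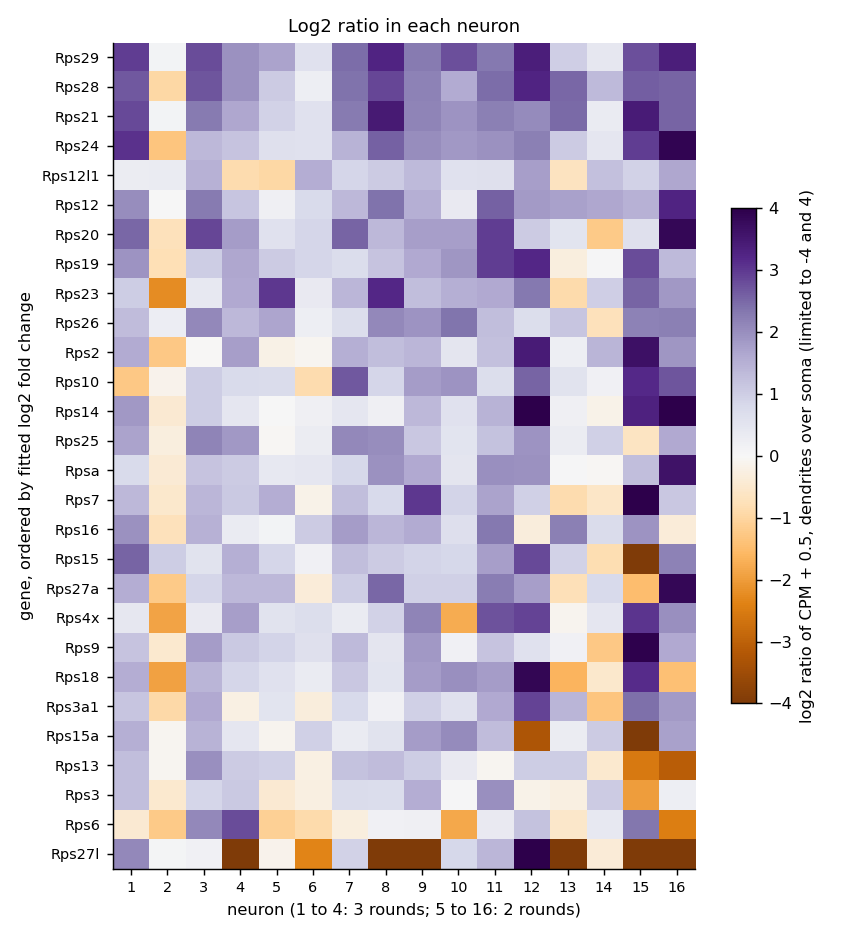
Log2 ratio of CPM + 0.5 between the dendrites and the soma of each neuron (columns) for 28 of the 32 members (rows, ordered by fitted fold change), purple where the dendrites were higher and orange where the soma was, with colours limited at -4 and 4. Column 2 is mostly orange, and the bottom row, Rps27l, holds strong orange cells in several neurons and a strong purple cell in neuron 12.

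The ratios of the members varied together from neuron to neuron. Over the 16 neurons, the median correlation between the log2 ratios of pairs of members (Rps12l1 left out, 465 pairs) was 0.41, and that of pairs among the 776 other genes with reads in all libraries was 0.05. All genes of a neuron share its libraries, depth and scaling, so these values describe the data and were not tested. Rps29 followed the mean of the other members most closely (r = 0.90), followed by Rps28 (0.83) and Rps19 (0.80). Rps15a (-0.19), Rps27l (0.05) and Rps13 (0.05) did not follow it. The dendritic fraction, the level in the dendrites as a percentage of the sum of both levels, ranged in its mean over neurons from 37.1% (Rps27l) to 79.1% (Rps29) among members with a value in all 16 neurons. Its SD over neurons had a median of 17.1 percentage points over the members and of 32.6 over 10471 genes. Rps12 had the smallest SD (11.8) and Rps27l the largest (34.1) of the family. Neither for this SD nor for the pair correlations were the other genes matched to the members for level. The part of level in these differences was not tested.

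How far the members stood out depended on what each library was scaled to. With DESeq2 and the same pairing, 15 members were higher in dendrites and Rps27l was higher in somas, where the test called 4.26% of all genes for the dendrites and 46.2% for the somas. On exon counts 7 of 31 members were called (Rps2 and Rps23 besides the first 5) against 1.00% of genes. Scaled so that the median gene had no change, a setting chosen after seeing the data, 28 members were called higher in dendrites and 0 in somas, against 5.04% of genes called higher in dendrites. The spike-ins, added at the same labelled dilution to both tubes of 14 neurons, turned the direction. Scaled to them, the median of the members was -1.28, all 32 were below 0, and 61.4% of genes were called higher in somas, among them 1 member (Rps27l, -4.66). The members still lay 2.68 above the median gene. In reads per spike-in read, the soma had more member reads than the dendrites in 11 of the 14 neurons, with a median ratio of 2.72 (0.260 to 9.77), and more reads of all genes in 13, with a median of 3.90 (0.446 to 22.9).

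To compare the members with each other, libraries were scaled to their summed reads. None then passed in either direction, and none had an unadjusted p under 0.05, while of all genes 0.322% were called for the dendrites and 35.4% for the somas. The order was led by Rps29 (0.89, SE 0.55), Rps28 (0.72, SE 0.59) and Rps21 (0.70, SE 0.58) and closed by Rps6 (-1.15, SE 0.83) and Rps27l (-2.49, SE 1.37, adjusted p = 0.130 by edgeR). This scaling sets each member against the family's sum, so the differences between neighbours in the order were not tested. The share of the family's reads was higher in the dendrites of 16 neurons for Rps29. The same held in 15 neurons each for Rps28 and Rps21, 13 for Rps24, 9 for Rps12, 4 for Rps6 and 3 for Rps27l. As a description of the reads, the 5 called genes made up 33.0% ± 6.96 of the family's reads in dendrites and 23.2% ± 6.57 in somas (SD, n = 16 each), and they were chosen by this contrast.

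The number of amplification rounds was examined because both libraries of a neuron shared it. The compartment effect differed between neurons of 2 and of 3 rounds for 0 of the 32 members, and for 0% of the genes tested (edgeR interaction term). The member with the smallest p was Rps12l1 (p = 0.240 by edgeR). The members' median was 1.18 in the 12 neurons with 2 rounds, where Rps29 alone was called, and 1.08 in the 4 with 3 rounds, where 0 members were called. With 12 neurons the fit called 43 of 10880 genes for the dendrites and 354 for the somas. With 4 neurons the fit called 5 genes in all, 4 of them for the dendrites.

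The members with the shortest proteins had the highest fold changes. Rps29, Rps28 and Rps21 have the shortest coding sequences of the family (168, 207 and 249 nt, GENCODE vM21), and the longest, Rpsa (885 nt) and Rps2 (906 nt), had log2 fold changes of 1.05 and 1.13. Across the 31 members with a coding length, Spearman's correlation with the log2 fold change was -0.44, and -0.55 without Rps27l. Across 9114 genes tested it was -0.08. It was between -0.56 and -0.32 for the members under the other settings, with spike-ins (-0.37) and exon counts (-0.44) among them. The 48 large subunit genes gave -0.61, with Rpl41 (138 nt) and Rpl39 (153 nt) among the 3 called. The authors counted reads on 3′UTRs joined from Ensembl, UCSC and a further set. These can differ in length from the annotation used here. In that annotation, the 3′UTR length had a correlation of -0.04 with the fold change of the members. Their 3′UTRs are short, with a median union of 258 nt as against 1849 nt over the genes tested. Genes of a family share libraries and annotation, so these correlations are descriptions across genes.

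**Figure D5:**
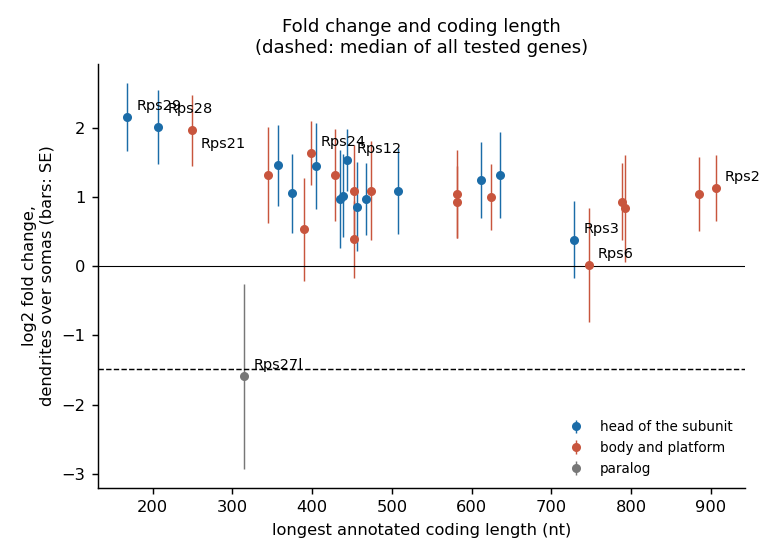
Log2 fold change between dendrites and somas (points, with the SE as bars) against the longest annotated coding length in nt for 31 members, coloured by place in the subunit, with a dashed line at the median of all genes (-1.49). Rps29, Rps28 and Rps21 stand at the upper left with 168 to 249 nt, and Rps27l stands alone below 0 at 315 nt.

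No member was called for a difference in the use of alternative 3′ ends. Counts on single ends were compared as the share of reads on the end with most reads among the top pair, in genes with at least 10 reads on them in both libraries of at least 5 neurons (exact signed-rank test, two-sided). Of the 20 members that could be tested 0 were called, as were 0% of the 3508 genes. Rps15a had the smallest p of the family (p = 0.0413, exact test, adjusted p = 0.949), with 55.2% ± 19.0 of its reads on one end in dendrites and 49.6% ± 17.6 in somas (SD, n = 15), higher in dendrites in 11 of 15 neurons. For 12 of the 20, among them Rps24 (100.0% and 99.9%) and Rpsa (97.1% and 98.1%), the mean share was over 90% in both compartments. The single ends held only 8.92% of the 3′UTR reads of Rps29 and 13.6% of those of Rps10, so these genes were compared on a small part of their reads.

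Other genes tied to the small subunit did not all lie with the members. Fau, which codes for a further small subunit protein fused to a ubiquitin-like one, had a log2 fold change of 1.06 (SE 0.78), and Gnb2l1, whose product Rack1 is a scaffold on the head, 0.47 (SE 0.56), and neither passed. Of 48 large subunit genes 3 were called higher in dendrites (Rpl41, Rpl39 and Rplp1) and 0 in somas, with a median of 0.96. The 29 genes of the mitochondrial small subunit, coded in the nucleus for another ribosome, had a median of -1.50, with 0 called. Of 15 small subunit assembly factors 0 were called higher in dendrites and 1 in somas (Pno1, -5.01), with a median of -3.57, and of 8 S6 kinase genes 0 and 1 (Rps6ka5), with a median of -3.37. Of 6 proteins that bind TOP mRNAs 0 were called higher in dendrites and 1 in somas (Tia1, -4.76), and Larp1 had -0.59 (SE 0.76, adjusted p = 0.595). Of 12 subunits of eIF3, which brings the small subunit to mRNAs, 0 were called higher in dendrites and 1 in somas (Eif3c, -3.44), with a median of -1.04, which is 0.45 above the median gene, and Eif3f had 0.97 (SE 0.67, adjusted p = 0.306), higher in the dendrites of 12 neurons. These counts stand beside 5.71% of all genes called higher in somas. DESeq2 called 20 large subunit genes for the dendrites and 2 for the somas. For the somas it called none of Fau and Gnb2l1, 15 of the 29 mitochondrial genes, 12 of the 15 assembly factors, 7 of the 8 S6 kinase genes, 3 of the 6 TOP mRNA binding proteins and 5 of the 12 eIF3 subunits, none of these lists had a gene called for the dendrites, and the same test called 46.2% of all genes for the somas.

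Ribosomal protein genes have many processed copies in the genome, and reads that map to more than one place were not counted. In the table, 83 rows of such copies held 33455 reads, 3.17% of the 1056514 reads of the members. The share was largest for copies of Rps13 (21.4% of the reads of Rps13), Rps16 (18.1%) and Rps23 (16.1%), and for Rps12 and Rps24 it was 2.00% and 2.46%. Levels are uncertain where reads were split between a member and its copies or dropped, and the part of this in the fold changes was not tested.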

How the data were processed

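The members and the lists of related genes were chosen with earlier results of these data known. The authors trimmed the reads, aligned them to mm10 with STAR 2.4.0, as named in the submitters' processing notes, and counted uniquely mapped reads by strand with VERSE. The deposited counts are whole numbers without normalization, on the union of the 3′UTRs of each of 44081 genes, on 74532 single 3′ ends, and on the exons of 23453 genes with 92 ERCC spike-ins. The reads carry no molecular identifiers, and precision was taken from the spread between neurons.

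From these counts, the 10880 genes that had reads in at least 16 libraries were compared with edgeR 4.0.16 in R 4.3.3 (TMM scaling, robust quasi-likelihood fit, neuron as block, Benjamini-Hochberg adjusted p of at most 0.05), and with DESeq2 1.42.0 as an alternative. Libraries were paired because the dendrites and the soma belonged to the same cell. The neurons came from multiple cultures and days, and which neuron came from which is not given in the sources used here. Other values were computed with pandas 2.3.3 and a pseudocount of 0.5 CPM. Full values were given to the called members, the 3 lowest, Rps6 and the paralogs, and the other members were given by log2 fold change, range or count. Chosen alternatives covered the test, scaling, filter, block, exon counts, rounds, equal reads and each neuron left out. The fits were tested on simulated data. Protein sequences were not used here. The values of 4 members are not reported here by name, and the counts and medians include them.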

Additional observations from a re-analysis of the deposited data

Results flagged for a closer look

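Among the 4 neurons with 3 rounds of amplification, the Rps24 level of the soma of neuron 2 (2411 CPM) stood far from the other three (330 to 542 CPM). The gap was 0.898 of the range of the 4 and above Dixon's critical value. It was the only such value in 66 sets of 4 examined, where chance gives about 1 in 20.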

How the results depend on the processing

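The count of 5 members called higher in dendrites became 15 with DESeq2 (and 1 higher in somas), 8 with equal reads in both libraries of a neuron, 28 with the median gene set to no change (median 2.56), 1 in the neurons with 2 rounds, 0 in those with 3 rounds, 0 with no filter beyond 1 read and 0 when scaled to the summed members. Without the block for neuron it was 7, and the count of members called in somas stayed at 0. Over all genes, the fit without the block called 157 for the dendrites and 77 for the somas. With the block these counts were 90 and 621. With 1 neuron left out the count of members called higher in dendrites ranged from 3 to 9. That in somas was 0 in each fit, and the median of the members ranged from 1.03 to 1.41. Among all genes, 110 of 10089 were called higher in dendrites with equal reads and 15 of 31102 with no filter beyond 1 read. The dendritic share was 1.91% on exons. The cause of these shifts was not tested, and in the fits by rounds the number of neurons changed together with the rounds. The count called in somas, the rounds term and the 3′ end test gave 0 again under the other alternatives run for each, except 1 called in somas (Rps27l) with spike-ins and with DESeq2.

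Spike-in scaling gave a median of -1.28 with 0 called higher in dendrites and turned 31 members, 27 of which are named here: Rpsa -1.29, Rps2 -1.18, Rps3 -2.03, Rps3a1 -1.57, Rps4x -1.27, Rps6 -2.03, Rps7 -1.37, Rps9 -1.45, Rps10 -1.15, Rps12 -0.81, Rps12l1 -0.66, Rps13 -1.96, Rps14 -1.24, Rps15 -1.59, Rps15a -1.89, Rps16 -1.34, Rps18 -1.44, Rps19 -1.14, Rps20 -0.97, Rps21 -0.48, Rps23 -1.16, Rps24 -0.77, Rps25 -1.29, Rps26 -1.20, Rps27a -1.41, Rps28 -0.34 and Rps29 -0.33.

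Scaling to the summed members, which sets their mean near 0 by construction, gave a median of -0.14 and turned 20, 18 of which are named here: Rpsa -0.18, Rps2 -0.11, Rps3 -0.81, Rps3a1 -0.41, Rps4x -0.31, Rps6 -1.15, Rps7 -0.19, Rps9 -0.30, Rps10 -0.12, Rps13 -0.75, Rps14 -0.08, Rps15 -0.21, Rps15a -0.60, Rps16 -0.20, Rps18 -0.35, Rps23 -0.01, Rps25 -0.16 and Rps27a -0.23. Rps6 (0.02) also turned with DESeq2 and its size factors (-0.23 each), with 2 rounds (-0.21), with no filter (-0.08) and without neuron 4, 11 or 14, in a range over the fits with 1 neuron left out of -0.15 to 0.44.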
